A study of Mus musculus with 4 samples.

Results

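The genes described here are C3, the central component of the complement system, and 8 further complement genes: C4b, C1qa, C1qb, C1qc, Serping1, C3ar1, C5ar1 and Cd55. They are 9 of the 45706 genes counted by RNA sequencing in the outflow tract of mouse hearts, the arterial end of the embryonic heart from which the aortic and pulmonary roots form. C3 was chosen because its level fell in Sox17eKO embryos, and the other 8 were listed for their roles in the same system with the results known. The tissue came from C57BL/6 embryos at embryonic day 12.5. The control group was labelled wild type (WT), and the labels do not say whether these embryos carried the Cre or the floxed alleles. In the Sox17eKO group the gene for SOX17, a transcription factor of endothelium, was knocked out in the endothelium of the aortic root, with Cre driven by an Nfatc1 enhancer. Each genotype had 2 libraries, and each library was 1 pool of 10 hearts. Embryos within a pool could not be told apart, and each library also held RNA of the cells of the tract in which the gene was not targeted. The submitters compared the genotypes to look for genes that depend on SOX17.

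Complement is a set of secreted proteins that tag surfaces for clearance. In the classical pathway the recognition molecule C1q, built from A, B and C chains, starts a protease cascade that cleaves C4 and then C3. In the alternative pathway C3 activates on its own. Cleaved C3 marks a surface covalently and releases the small peptide C3a, and cleavage of C5 releases C5a. Soluble and membrane-bound inhibitors, among them the product of Serping1 and CD55, keep the cascade off the body's own cells. C3 is abundant in liver and is also made by epithelia, mesothelia and activated endothelium, whereas C1q and the anaphylatoxin receptors are known mainly from tissue macrophages and other myeloid cells.

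The promoter of C3 is shown because C3 is the member that was chosen for its fall. Those of C1qb and C1qc are shown because these genes lie side by side and had similar read counts, not scaled by length. Each line gives the 250 bases before the RefSeq transcription start (GRCm38.p6, the assembly that mm10 names), read 5′ to 3′ on the minus strand. Promoters were found for 6 of the 9 members. C3 was at chr17:57228137-57228386, C1qb at chr4:136886201-136886450 and C1qc at chr4:136892915-136893164. Capitals mark matches, on either strand, to 4 motifs: ACAAT (the core bound by SOX factors), AGGAAGT (bound by ETS factors such as PU.1 of myeloid cells), TATAAA (the TATA box) and TTGCNNAA (a form bound by C/EBP factors).
C3: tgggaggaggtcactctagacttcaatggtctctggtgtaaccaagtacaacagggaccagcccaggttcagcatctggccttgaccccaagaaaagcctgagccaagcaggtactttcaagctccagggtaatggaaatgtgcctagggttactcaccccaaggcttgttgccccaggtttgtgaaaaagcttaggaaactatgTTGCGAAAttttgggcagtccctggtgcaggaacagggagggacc
C1qb: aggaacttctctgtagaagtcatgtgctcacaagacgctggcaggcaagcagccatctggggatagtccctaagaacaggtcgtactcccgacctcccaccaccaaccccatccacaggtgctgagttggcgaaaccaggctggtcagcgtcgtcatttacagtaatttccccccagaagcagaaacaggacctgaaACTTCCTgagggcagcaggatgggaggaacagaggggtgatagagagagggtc
C1qc: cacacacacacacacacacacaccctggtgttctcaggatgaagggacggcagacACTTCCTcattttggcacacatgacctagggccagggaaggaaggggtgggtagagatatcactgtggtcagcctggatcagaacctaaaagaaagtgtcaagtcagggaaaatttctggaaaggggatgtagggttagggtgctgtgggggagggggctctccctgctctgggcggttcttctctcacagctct

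The C3 window held TTGCGAAA, a match to the C/EBP form, from 45 to 38 bases before the start, and no ACAAT on either strand. Of 32841 RefSeq promoter windows of the same length, 9.57% held TTGCNNAA and 27.7% held ACAAT. The ETS form AGGAAGT appeared on the reverse strand, as ACTTCCT, once each in C1qb and C1qc and at 2 positions in C5ar1, and 7.69% of all windows held it. C3ar1 held TATAAA from 235 to 230 bases before the start (12.4% of windows), and Cd55 held none of the motifs. The motifs were picked for the factors named and after the sequences had been seen. A match describes letters and is no evidence of binding, and the lack of one covers these 250 bases only.

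Levels are given as CPM, read counts relative to library size after scaling between libraries by the trimmed mean of M values (TMM). C3 (ENSMUSG00000024164; chromosome 17, 57203970 to 57228136, minus strand, 5143 exonic bases in 42 exon blocks) was covered by 230 and 99 reads in WT replicates 1 and 2 and by 76 and 66 reads in Sox17eKO replicates 1 and 2. These counts corresponded to 17.8 and 12.5 CPM in WT and 5.24 and 3.002 CPM in Sox17eKO. Both WT libraries were above both Sox17eKO libraries, and the lower WT value was more than the sum of both Sox17eKO values. The mean was 15.2 ± 3.76 CPM in WT and 4.12 ± 1.58 in Sox17eKO (SD, n = 2). By the fit, Sox17eKO held 25.7% of the WT level (95% interval 17.5% to 37.7%), which is -1.96 on the log2 scale (standard error 0.25). This contrast is the one that chose C3, so these values are a description and no test is given.

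The spread within a genotype was wide for C3. WT replicate 1 was above WT replicate 2, and Sox17eKO replicate 1 above Sox17eKO replicate 2. With 1 library left out, the log2 fold change ranged from -2.36 (without Sox17eKO replicate 1) to -1.56 (without Sox17eKO replicate 2). Pooling the reads of each genotype at equal depth gave a Sox17eKO level of 24.6% of WT, with a 95% counting interval of 20.1% to 30.04% that covers counting error only. Sox17 itself, the targeted gene, had 6.05 and 6.83 CPM in WT and 2.76 and 2.82 CPM in Sox17eKO. In tissue of mixed cells, fewer cells that express a gene and less of its RNA per cell cannot be told apart.

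**Figure D1:**
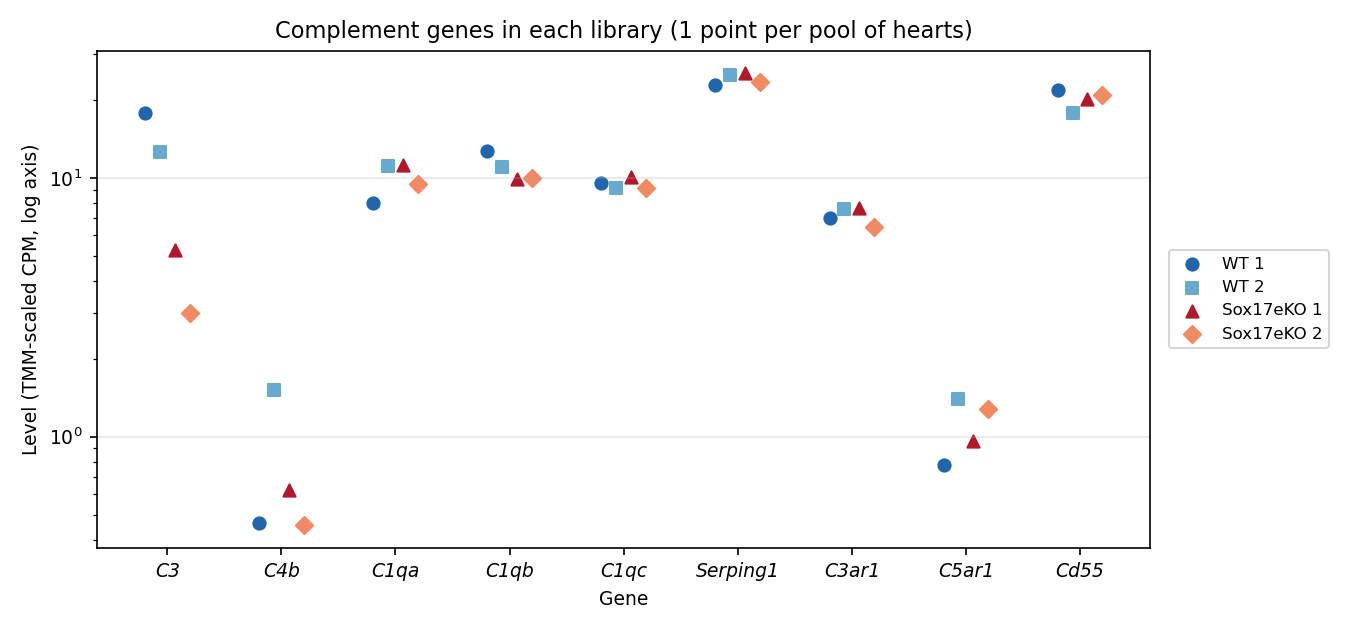
Level of each of the 9 genes (TMM-scaled CPM, log axis) in the 4 libraries, 1 point per library of 10 pooled hearts. C3 lies at 17.8 and 12.5 CPM in WT and at 5.24 and 3.002 in Sox17eKO, and the genotypes overlap for every other gene except C1qb.

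C4b encodes a mouse form of C4, the relative of C3 that forms part of the classical C3 convertase. It was close to the limit of detection, with 6 and 12 reads in WT and 9 and 10 in Sox17eKO. This gave 0.465 and 1.52 CPM in WT and 0.621 and 0.455 CPM in Sox17eKO, and the genotypes overlapped. C4b did not pass the filter on low counts and was the 1 member of 9 not tested. Its pooled reads gave a Sox17eKO level of 60.2% of WT with a 95% counting interval of 29.9% to 122%, which leaves out the spread between pools. Fitted with no filter on low counts, its log2 fold change was -0.76 (standard error 0.58), and without WT replicate 1 it was -1.52 (0.70), so neither no change nor a fall as large as that of C3 could be resolved at this depth. C4a, a near-identical neighbour on chromosome 17, had 1 to 12 reads per library. Reads that fit both C4 genes were not counted to either where they aligned to more than 1 place, so the levels of this pair are uncertain.

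The C1q chains (C1qa, C1qb and C1qc, within 18675 bp on chromosome 4) were the recognition genes with the most reads. C1qa measured 7.99 and 11.1 CPM in WT and 11.2 and 9.46 in Sox17eKO, and the genotypes overlapped. C1qc had 9.54 and 9.11 CPM in WT and 10.1 and 9.10 in Sox17eKO, also overlapping. C1qb was at 12.7 and 11.01 CPM in WT and 9.86 and 10.0 in Sox17eKO, so that both WT libraries were higher, by a small margin. Such a separation was found in 52.8% of the 16570 genes tested, and nothing is read from it. The fitted log2 fold changes were 0.13 for C1qa (standard error 0.18, 95% interval -0.23 to 0.50), -0.27 for C1qb (0.15, -0.58 to 0.04) and 0.03 for C1qc (0.16, -0.30 to 0.36). The C3 interval, with an upper bound of -1.41, lay below all of these. This contrast chose C3, so nothing is read from that difference. Of all C1q reads, C1qa made up 26.4% in WT replicate 1 (95% exact binomial interval 22.1% to 31.1%, for counting error only), against 35.6%, 35.9% and 33.1% in WT replicate 2 and Sox17eKO replicates 1 and 2. C1qb made up 42.1% in WT replicate 1 and 31.7% to 35.2% in the other libraries. The share of C1qc was between 29.1% and 32.4% in all 4. For both chains the interval of WT replicate 1 overlapped those of WT replicate 2 and Sox17eKO replicate 2 but not that of Sox17eKO replicate 1. Without WT replicate 1 the log2 fold change of C1qa was -0.12 and that of C1qb -0.15.

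Serping1 encodes C1 inhibitor, the serpin that blocks the proteases C1r and C1s. It was the member with the most reads, at 22.8 and 24.9 CPM in WT and 25.3 and 23.5 in Sox17eKO. The genotypes overlapped, and the fitted log2 fold change was 0.03 (standard error 0.11, 95% interval -0.21 to 0.27). Cd55 encodes decay-accelerating factor, a membrane protein that takes C3 convertases apart. Its level was 21.9 and 17.8 CPM in WT and 20.1 and 20.8 in Sox17eKO. WT replicates 1 and 2 were the highest and the lowest of the 4, and the log2 fold change was 0.03 (standard error 0.13, 95% interval -0.23 to 0.29). An antisense gene, Gm16083, shares 102 of the 4853 exonic bases of Cd55, and no other member shares exonic bases with another gene in GENCODE M21.

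C3ar1 encodes the receptor of C3a. It was at 6.98 and 7.59 CPM in WT and 7.65 and 6.46 in Sox17eKO, with overlapping genotypes and a log2 fold change of -0.05 (standard error 0.18, 95% interval -0.43 to 0.34). C5ar1, the receptor of C5a, was rare, with 10 and 11 reads in WT and 14 and 28 in Sox17eKO. This gave 0.776 and 1.39 CPM in WT and 0.965 and 1.27 in Sox17eKO. The genotypes overlapped, and the 95% interval of its log2 fold change, -0.78 to 1.09, held both no change and a rise as large as 2-fold.

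Of the 8 members tested, C3 passed an edgeR adjusted p of 0.05 and the other 7 did not (0 at an unadjusted p under 0.05, and 0 by DESeq2), beside 5.35% of all 16570 genes tested. C3 was chosen by this contrast, so nothing is read from the count. The median log2 fold change of the 8 was 0.03, and that of all genes tested was -0.01.

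For levels compared between genes, CPM was divided by the exonic length in kb. On this length-scaled scale Serping1 (10.4, mean of 4 libraries), C1qb (10.0) and C1qa (9.56) were highest. Their ranges over the libraries overlapped (9.81 to 10.9, 9.06 to 11.7 and 7.68 to 10.7), so their order is not resolved. C1qc (4.71 to 5.21) was below all of these and above Cd55 (3.68 to 4.51). C3ar1 (1.5 to 1.78), C5ar1 (0.302 to 0.541) and C4b (0.0799 to 0.267) followed without overlap. The place of C3 differed by genotype, which restates the fall for which it was chosen. In WT its length-scaled level of 2.95 ± 0.731 (SD, n = 2) lay between Cd55 and its receptor gene C3ar1. In Sox17eKO, at 0.801 ± 0.308, it lay below C3ar1 and above C5ar1. Exonic lengths merge all annotated transcripts of a gene, which understates genes that use a short form.

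**Figure D2:**
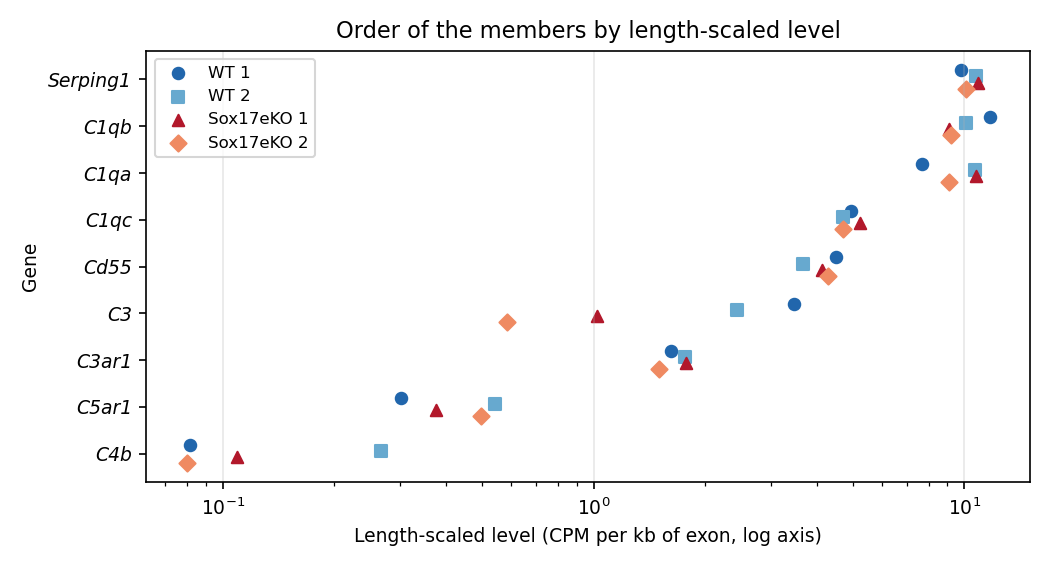
Length-scaled level (CPM per kb of exon, log axis) of the 9 genes, ordered by their mean over the 4 libraries, 1 point per library. C3, chosen for its fall in Sox17eKO, spans 0.584 to 3.47, with both WT libraries above C3ar1 and both Sox17eKO libraries below it. The values of Serping1, C1qb and C1qa overlap.

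The rest of the pathway was taken from a list of 56 complement genes by role, which includes the 9 members. Of these, 26 passed the filter on low counts, and C3, which this same contrast chose, was the 1 that passed the test, with none higher. Of all genes tested 1.22% were lower and 4.13% higher in Sox17eKO, and nothing is read from a count that includes C3. Without the members, 18 of 47 were tested and none passed in either direction by edgeR, 2 (Cfp and Cd59a) had an unadjusted p under 0.05, and DESeq2 called 0. Over all 16570 genes DESeq2 without its default filter called 305 higher and 51 lower. The share of all genes at an unadjusted p under 0.05 is not given here, so nothing is read from these counts. The log2 fold changes of the 18 ranged from -0.37 (Cfi) to 0.78 (Csmd1) with a median of -0.01, and the smallest edgeR adjusted p was 0.161 (Cfp). The median of all 26 was 0.01.

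Among recognition genes outside C1q, Colec11, a collectin of the lectin pathway, measured 2.79 ± 0.880 CPM in WT and 2.62 ± 0.489 in Sox17eKO (SD, n = 2), and Fcna, a ficolin, was at 0.359 ± 0.150 and 0.572 ± 0.0280. Masp1, which encodes a lectin pathway protease, was at 15.0 ± 2.18 and 15.5 ± 2.32 CPM and was the 1 of 7 protease genes tested, since C1ra, C1rb, C1s1, C1s2, Masp2 and C2 had at most 7 reads in any library. In the alternative pathway, Cfp, which encodes properdin, the stabiliser of the C3 convertase, was at 2.49 ± 0.653 and 4.18 ± 0.630 CPM. Its log2 fold change of 0.69 (standard error 0.28) did not pass (edgeR adjusted p = 0.161). Cfb, the protease that binds C3b, had 1 read in the 4 libraries together. Cfd, which encodes the protease that cleaves factor B, had none.

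Among terminal components, C8g had 7 to 27 reads per library and a log2 fold change of -0.03 (standard error 0.54), C7 had 1 or 2 reads per library, and Hc, which encodes C5, also had 1 or 2. In total 8 of the 56 genes had no read in any library: Mbl1, Mbl2, C1rb, Cfd, C6, C8a, C8b and C4bp. A count of 0 over the 57184050 reads in genes of all libraries allows a level of up to 0.0525 CPM (3 counts).

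Soluble regulators summed to 238 to 258 CPM per library and receptors to 263 to 295 CPM, and Clu and Cd93 made up most of these sums. Clu, which encodes clusterin, an inhibitor of the membrane attack complex with other functions, stood at 187 ± 8.95 CPM in WT and 189 ± 2.29 in Sox17eKO (SD, n = 2). Its log2 fold change was 0.02 (standard error 0.08). On cell membranes, Cr1l, the rodent inhibitor Crry, stood at 44.5 ± 3.34 CPM (WT) and 45.7 ± 0.556 CPM (Sox17eKO) (log2 fold change 0.03, standard error 0.09). Cd59a, an inhibitor of the membrane attack complex, was at 12.7 ± 0.935 and 10.2 ± 1.74 CPM (-0.35, 0.16) and did not pass (edgeR adjusted p = 0.208). Among receptors, Cd93, a surface protein of endothelium once described as a C1q receptor, was at 249 ± 5.20 and 226 ± 13.4 CPM (-0.14, 0.08; edgeR adjusted p = 0.312). C1qbp, a mitochondrial protein that also binds C1q, was at 32.5 ± 2.72 and 31.7 ± 0.385 CPM.

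**Figure D3:**
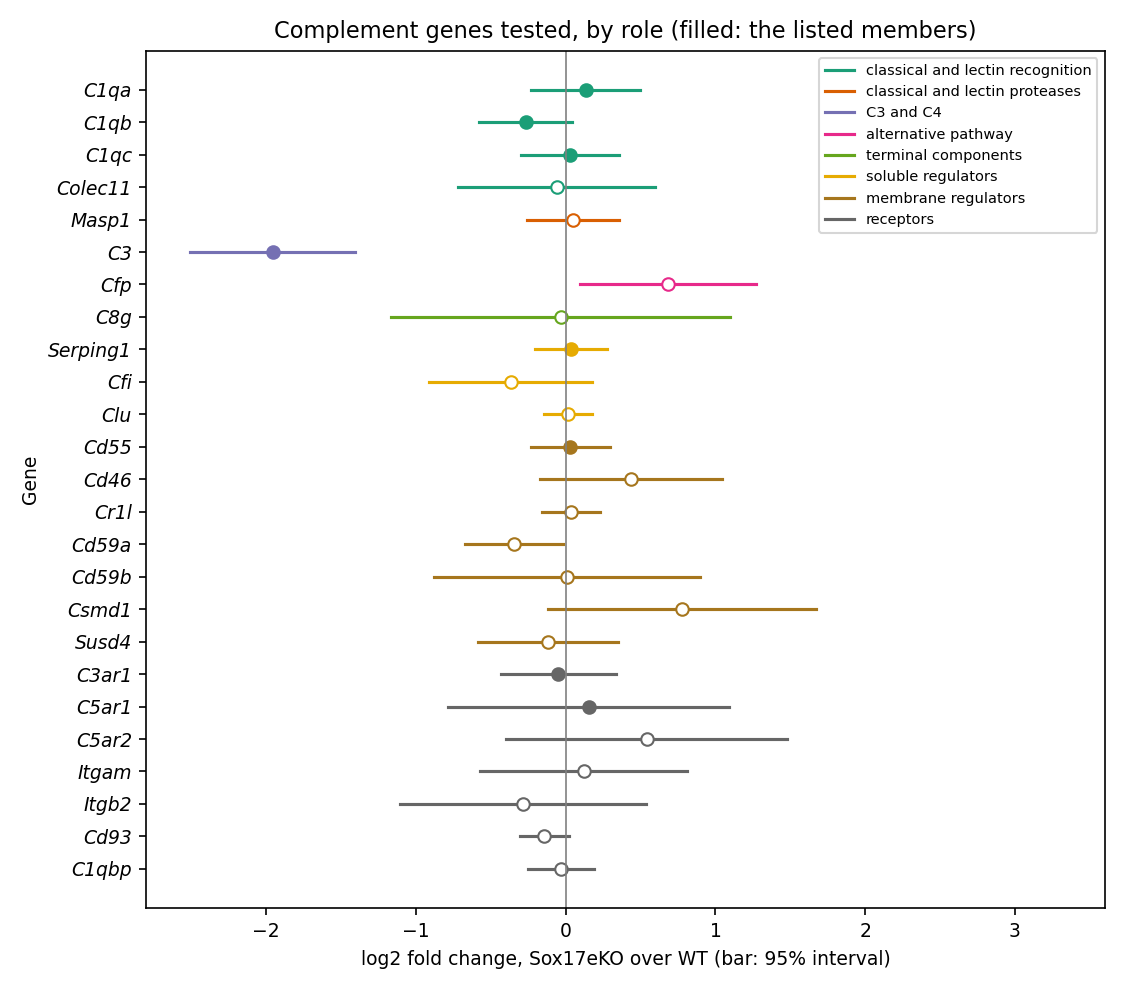
Fitted log2 fold change of Sox17eKO over WT for 25 of the 26 complement genes that passed the filter on low counts, coloured by role, with 95% intervals (bars); filled points are the listed members. C3 lies at -1.96 and the non-members between -0.37 and 0.78.

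In CPM the libraries were checked against markers of cell types. Cardiomyocyte, smooth muscle, cushion mesenchyme and endothelial genes were read in every library, among them Myl7, Myh7, Acta2, Tagln, Postn, Vcan, Tek and Pecam1, all of which the labelled tissue is known to contain. Of the 16 macrophage genes none passed edgeR's test, beside 5.35% of all genes tested, so nothing is read from that count. Among the 16, 1 (Lyz2) had an unadjusted p under 0.05, and DESeq2 called 0. The fitted level was lower for 12 of the 16, beside 8578 of all 16570 genes tested, and the median log2 fold change was -0.15. The most abundant per length were Lyz2 (28.2 ± 1.02 CPM in WT, 23.6 ± 1.23 in Sox17eKO) and Ctss (9.17 ± 0.457 and 8.28 ± 1.16). The summed C1q chains were at 30.2 and 31.2 CPM in WT and 31.1 and 28.6 in Sox17eKO, and the summed macrophage list at 162 and 174 in WT and 153 and 152 in Sox17eKO. C1q therefore amounted to 18.0% to 20.3% of the macrophage sum in each library. Of the 7 neutrophil and granulocyte genes Mpo was the 1 tested by edgeR, and it did not pass (2 and 2 reads in WT, 19 and 17 in Sox17eKO; edgeR adjusted p = 0.0518). Their sum was 0.543 and 1.52 CPM in WT and 3.72 and 1.87 in Sox17eKO, with Elane at 0 in 3 libraries and S100a9 and S100a8 the most abundant per length.

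C3 was set beside the tissues known to make it. The 12 liver and yolk sac genes, Afp and Apoa1 the most abundant per length, summed to 109 and 18.0 CPM in WT replicates 1 and 2. In Sox17eKO replicates 1 and 2 they summed to 9.03 and 194 CPM. None of the 10 tested passed by edgeR or DESeq2, nor had an unadjusted p under 0.05. By edgeR 5.35% of all genes tested passed, so nothing is read from that count. The sum and C3 were both higher in replicate 1 than in replicate 2 of WT, and in Sox17eKO the library with the higher sum had the lower C3 level. Alb was at 6 to 46 reads per library. Of 12 epicardial and mesothelial genes, Upk3b and Lrrn4 fell (log2 fold changes -0.35 and -0.53, edgeR adjusted p = 0.0142 and 0.0143), and Krt19, the other most abundant gene per length, had -0.14. Of the 11 tested, 10 had a lower fitted level, with a median log2 fold change of -0.18. The list summed to 483 and 522 CPM in WT and 456 and 405 in Sox17eKO. The 10 endothelial genes summed to 1094 and 1137 CPM in WT and 1008 and 1078 in Sox17eKO, and Tie1 was the 1 that passed (log2 fold change -0.34, edgeR adjusted p = 0.0204). Of these 10, 9 had a lower fitted level, with a median log2 fold change of -0.13. All 9 erythroid genes counted had a lower fitted level, as did 8578 of all 16570 genes tested. The median log2 fold change of the 9 was -0.61. By edgeR Hbb-y passed while Hba-x, the other most abundant gene per length, did not, and DESeq2 called 0. The epicardial, endothelial and erythroid sums were lower in Sox17eKO by less than C3 was, and the part of these lists and of the liver and yolk sac genes in the C3 result was not tested. Of the remaining lists, Ryr2 rose among 8 cardiomyocyte genes, Myocd rose and Cnn1 fell among 5 smooth muscle genes, and Vcan and Pdgfra rose among 6 cushion mesenchyme genes. Without WT replicate 2 none of the marker genes called here passed except Ryr2 (edgeR adjusted p from 0.068 to 0.374). Upk3b, Lrrn4, Cnn1 and Myocd also did not pass without Sox17eKO replicate 2 (0.0763 to 0.219), Tie1, Hbb-y and Pdgfra without Sox17eKO replicate 1 (0.125 to 0.172), and Myocd without WT replicate 1 (0.211). With the trend on exonic length removed, Hbb-y, Cnn1, Myocd, Vcan and Pdgfra did not pass (edgeR adjusted p from 0.0757 to 0.289). Ryr2 passed in that fit with a log2 fold change of 0.35, against 0.74 with the trend kept. By DESeq2 without its default filter, 1 cardiomyocyte, 1 smooth muscle and 1 epicardial gene passed, and 0 endothelial, erythroid and cushion mesenchyme genes. With that filter the numbers were 3, 1 and 1, and then 1, 0 and 1. An unadjusted edgeR p under 0.05 was found for 6 of 8 cardiomyocyte, 3 of 5 smooth muscle and 3 of 11 epicardial genes. It was also found for 3 of 10 endothelial, 3 of 9 erythroid and 4 of 6 cushion mesenchyme genes. Nothing is read from the unadjusted counts of any list, since the share over all genes is not given.

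**Figure D4:**
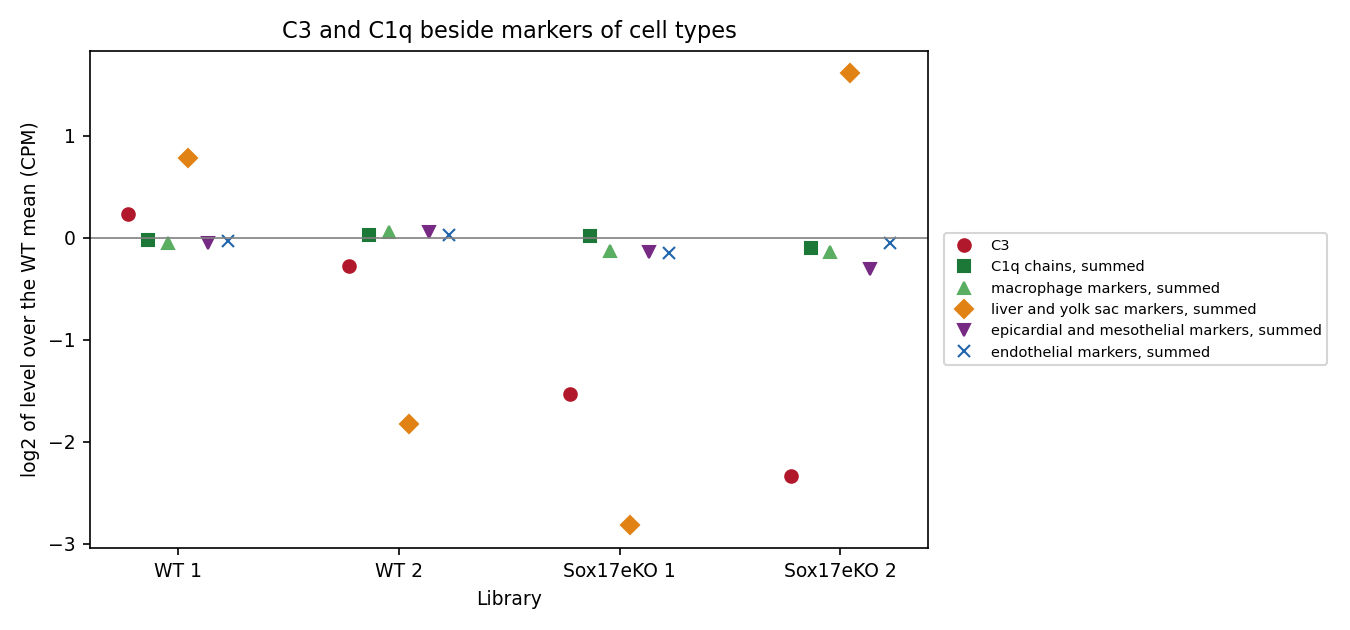
Level of C3, of the 3 C1q chains summed and of 4 marker lists summed, each as log2 of its CPM over its WT mean, in the 4 libraries. C1q stays near 0 with the macrophage list, C3 is lower in both Sox17eKO libraries, and the liver and yolk sac list is high in WT replicate 1 and Sox17eKO replicate 2.

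The genes whose pattern over the 4 libraries was most like that of C3 were found from the root mean square difference of log2(CPM + 0.5) values, each centred on the gene's mean, among 15551 other genes whose mean reached 1 CPM. The measure uses the same 4 libraries that chose C3, so the genes found are necessarily lower in Sox17eKO, and the order of the libraries within a genotype also enters it. The nearest was Spp1, which encodes the secreted phosphoprotein osteopontin (difference 0.285), at 6.44 and 3.29 CPM in WT and 2.14 and 1.18 in Sox17eKO. Prap1, which encodes a secreted acidic protein known from gut and pregnant uterus (0.332), was at 15.4 and 7.46 CPM in WT and 3.72 and 1.14 in Sox17eKO. Abcb1b, which encodes a drug efflux pump (0.370), was at 10.3 and 6.71 CPM in WT and 3.03 and 3.18 in Sox17eKO. 5330417C22Rik (0.494) was at 1.55 and 1.52 CPM in WT and 0.965 and 0.364 in Sox17eKO. Sox17, the targeted gene, was the fifth (0.498). WT replicate 1 was above WT replicate 2 in the first 4 of these genes, by little in 5330417C22Rik, and below it in Sox17.

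**Figure D5:**
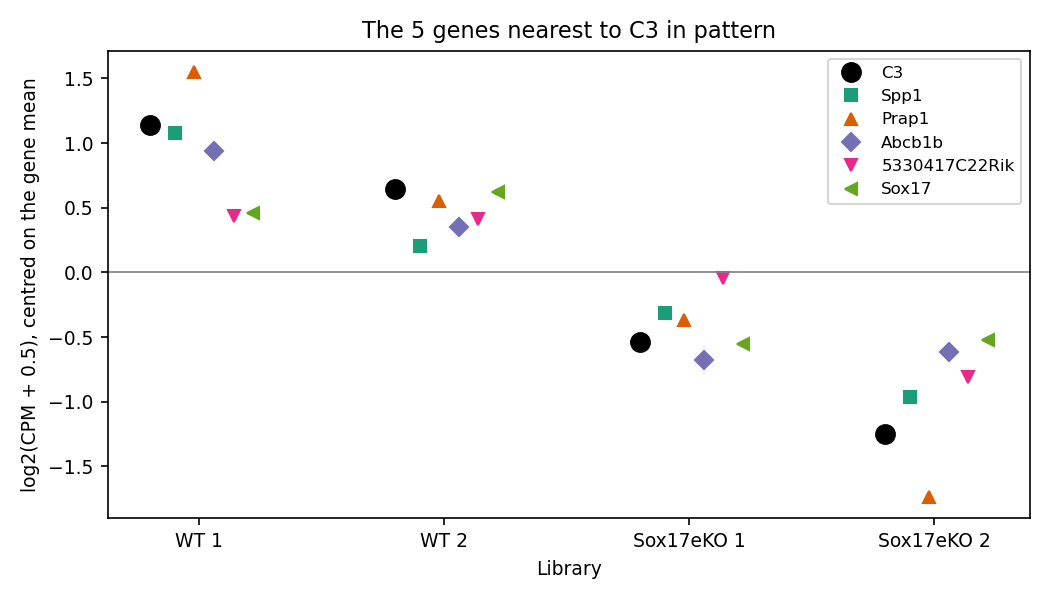
Level of C3 and of the 5 genes nearest to it in pattern, as log2(CPM + 0.5) centred on each gene's mean, in the 4 libraries. C3, Spp1, Prap1, Abcb1b and, by little, 5330417C22Rik were highest in WT replicate 1, and Sox17 was highest in WT replicate 2.

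C3 was also compared with the genes around it. Within 100000 bp of C3 on either side, 5 other genes passed the filter: Gpr108 and Trip10, Vav1, Tnfsf9 and the noncoding Gm11110. Their log2 fold changes ranged from -0.15 to 0.17 with standard errors of 0.12 to 0.39. None passed by edgeR or DESeq2 or had an unadjusted p under 0.05. By edgeR 5.35% of all genes tested passed, so nothing is read from a count of 0 among 5. Gpr108, the nearest tested gene beyond the C3 start, had -0.05 (standard error 0.13, edgeR adjusted p = 0.854).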

How the data were processed

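RNA from 4 libraries (WT and Sox17eKO, n = 2 each; 20 mice per genotype per the labels' protocols) was extracted with TRIzol for strand-specific Illumina sequencing, per the labels. The deposited values are unnormalized read counts for each Ensembl gene, and TopHat2, HTSeq and mm10 are named in the submitters' processing notes. The strand setting and the annotation release are not given in the sources used here. Symbols, positions and lengths came from GENCODE M21 (45143 of 45706 genes matched) and promoters from RefSeq (GRCm38.p6). Reads in genes numbered 8113463 to 21883956 per library. The HTSeq summary rows entered neither library sizes nor tests. Reads outside annotated exons made up 20.4% to 22.2% of uniquely placed reads in WT and 29.5% to 34.1% in Sox17eKO.

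Counts were tested with edgeR 4.0.16 (R 4.3.3; quasi-likelihood, robust, TMM, one term for genotype) for 16570 genes kept by filterByExpr, with Benjamini-Hochberg adjustment over all of them and a threshold of 0.05. Before moderation 2 residual degrees of freedom remained. Standard errors came from the log2 fold change and its F statistic. The p-values rest on counting noise and on spread between pools, with the spread moderated over all genes. They do not measure spread between single embryos. The 2 libraries of a genotype differed beyond counting noise (chi-square over degrees of freedom 4.77 for WT, 6.01 for Sox17eKO). A simulation for this comparison (16323 genes in the step) recovered 61.2%, 83.6% and 98.5% of genes set to change 1.5-fold, 2-fold and 4-fold. False ones made up 5.26% of its calls, and with no gene set to change it made 0. These rates hold for the simulated counts only, and the share of false calls in the deposited counts was not tested. There, the protein-coding fit called 600 genes higher and 149 lower, and 64 and 58 with the trend on exonic length removed.

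The members and lists were chosen with earlier results of these data known. Named were the members, Sox17, list genes past the threshold, the 2 most abundant non-members per complement role and the 2 most abundant genes per marker list by length-scaled level, and the 5 genes nearest to C3 in pattern. Further complement genes (C1ra, C1rb, C1s1, C1s2, Masp2, C2, Hc, Cfd, Cfi, Csmd1 and those without reads), Alb, Elane, Mpo and the neighbours of C3 were named after their values were seen. Alternatives were DESeq2 1.42.0, other scalings and filters, the replicate block, the fit without the robust option and each library left out. Added after seeing the data were DESeq2 without independent filtering and fits on protein-coding genes, also with a smooth trend on exonic length removed (mgcv 1.9.3). Values of 1 tested complement gene are not reported here, and the counts, medians and sums over the list include it.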

Additional observations from a re-analysis of the deposited data

Results flagged for a closer look

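Reads placed outside annotated exons, which no comparison used, made up at least 29.5% of uniquely placed reads in each Sox17eKO library and at most 22.2% in each WT library.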

How the results depend on the processing

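The log2 fold change of C3 lay between -2.36 and -1.56 over 14 alternatives (-1.65 without WT replicate 1, -2.36 and -1.56 without Sox17eKO replicates 1 and 2), given as a description since these libraries chose C3. DESeq2 with its default filter gave an adjusted p to 5326 genes, 3 of them complement genes and C3 not among them, so its count of lower complement genes was 0. Without that filter, chosen after seeing the data, the count was 1. With a library left out, C1qa took log2 fold changes from -0.12 to 0.36, Cd55 from -0.09 to 0.20 and C4b from -1.52 to -0.53. C4b was also fitted with no filter on low counts (-0.76). With the trend on exonic length removed, that of C1qb was -0.13. None of these members passed in any fit. Over all genes, 684 were higher and 202 lower. The counts were 300 and 109 with DESeq2, 305 and 51 with DESeq2 without independent filtering, and 64 and 58 with the length trend removed. The lower genes numbered 111 with library size only, 387 with no filter and 105 without the robust option. With a library left out, the higher genes ranged from 172 (without WT replicate 2) to 756 (without WT replicate 1) and the lower from 20 (without WT replicate 2) to 463 (without WT replicate 1), with 387 and 85 without Sox17eKO replicate 1. The labels give no pairing behind the shared replicate numbers. Same-numbered libraries did not deviate together (correlation -0.0188 over 15552 genes), and with the replicate block 1107 genes were higher and 577 lower, and the log2 fold change of C3 was -1.90. Rare genes (C4b, C5ar1, most proteases and terminal components) were limited by depth.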
